A study of Mus musculus with 4 samples.

Results

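Regulatory T cells (Tregs), the CD4 T cells that restrain immune responses, were profiled on 4 one-colour expression arrays for 10 genes of the transforming growth factor beta (TGF-beta) pathway, out of 22296 genes named on the array design. The 10 genes are the ligands Tgfb1, Tgfb2 and Tgfb3, the ligand anchor Lrrc32, the receptors Tgfbr1 and Tgfbr2, the signal carriers and brakes Smad3, Smad7 and Pmepa1, and the target Id1. They were found by the gene name printed for each probe in the scanner files, which gave 17 probes on 35 spots per array among 55681 probes. The arrays held sorted cells of deltaDC spleen, wild-type (WT) spleen, deltaDC thymus and WT thymus, 1 array each. All mice were male C57BL/6, cells of 3 mice per genotype were pooled before the sort, and no treatment or age is stated. No label explains the name deltaDC. The field uses it for mice without dendritic cells. Since no deleted gene or promoter is stated, there was no targeted transcript to check. Splenic cells were enriched by negative selection for CD4, thymic cells by depletion with anti-CD8, and both were sorted as live cells positive for CD4 and for CD25, the IL-2 receptor alpha chain, not for Foxp3.

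TGF-beta is secreted in a latent complex with its own propeptide and has to be released before it can signal. Lrrc32, also called GARP, tethers the latent complex to the Treg surface, where integrins free the ligand. The ligand joins Tgfbr2, a kinase that switches on Tgfbr1, and Tgfbr1 phosphorylates Smad2 and Smad3, which enter the nucleus with Smad4. Smad7 and Pmepa1 are made in response to the signal and dampen it, Smad7 at the receptor and Pmepa1 by binding receptor-regulated Smads. In T cells the pathway supports thymic Treg survival, helps to induce Foxp3 outside the thymus, and restrains effector programmes such as those of Tbx21 and the granzymes.

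Values are background-subtracted fluorescence, scaled so that the 75th percentile of every array was 388 signal units. Signals of different probes differ with the probe and were not compared with each other. A probe was taken as measured where the scanner software called it well above background. Of the 17 probes, 15 were well above background on all 4 arrays, and both Tgfb2 probes were not on any array, which leaves 9 measured genes. With 1 array per group no p-value exists for a pair of arrays, so differences are given on the log2 scale with the spot error. That error comes from the spread between repeated spots of 1 array, 0.27 log2 units below a signal of 50 and 0.05 above 10000, and it holds no variation between mice, sorts or labellings. Because these are bulk samples, fewer cells of a type and less RNA per cell cannot be told apart.

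The sorted cells carried the markers that their label calls for, and the splenic deltaDC array also carried markers of other lymphocytes. All 7 Treg and T cell markers on the array were well above background on every array, and their summed signal was 131146 in deltaDC spleen, 130591 in WT spleen, 123620 in deltaDC thymus and 120474 in WT thymus. This sum, like those of the other marker lists below, can join genes of both signs and is weighted to its brightest genes. In spleen, Cd3e, Cd3g and Cd4 differed between deltaDC and WT by 0.25, 0.12 and 0.49 log2 units. The Treg markers Foxp3, Il2ra, Ctla4 and Ikzf2 differed there by -0.10, -0.90, -0.06 and -0.02. Foxp3, the Treg master regulator, had 10867 signal units in deltaDC spleen and 11661 in WT spleen, with 10557 in deltaDC thymus and 8860 in WT thymus. The 7 natural killer (NK) cell markers summed to 28995 in deltaDC spleen, against 2795 in WT spleen, 7982 in deltaDC thymus and 7602 in WT thymus. Most of each sum was Nkg7, with 23544 in deltaDC spleen, 2588 in WT spleen, 7537 in deltaDC thymus and 7326 in WT thymus. Of the 7 markers, 5 were measured on both splenic arrays, and all 5 were at least 2-fold higher in deltaDC. Klrb1c had 49.6 in WT thymus and 85.3 in WT spleen, and Ncr1 and Klre1 were not well above background on either WT array. The 6 markers of innate lymphoid cells, gamma-delta T cells and natural killer T cells summed to 4616 in deltaDC spleen, against 329 in WT spleen, 1343 in deltaDC thymus and 1609 in WT thymus. The 7 neutrophil markers summed to 9720 in deltaDC spleen and 168 in WT spleen, where 5 of them, S100a8, S100a9, Mpo, Ltf and Ly6g, were not well above background. In deltaDC thymus these 7 markers summed to 2441, against 947 in WT thymus. Of 8 dendritic cell markers, 5 were well above background in deltaDC spleen and 1 in WT spleen, with 5 in deltaDC thymus and 6 in WT thymus. Siglech was bright on every array, with 45000 signal units in deltaDC spleen and 70028 in WT spleen, and Xcr1 and Clec9a were not well above background on any. The part of these cells in any difference below was not tested.

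**Figure D1:**
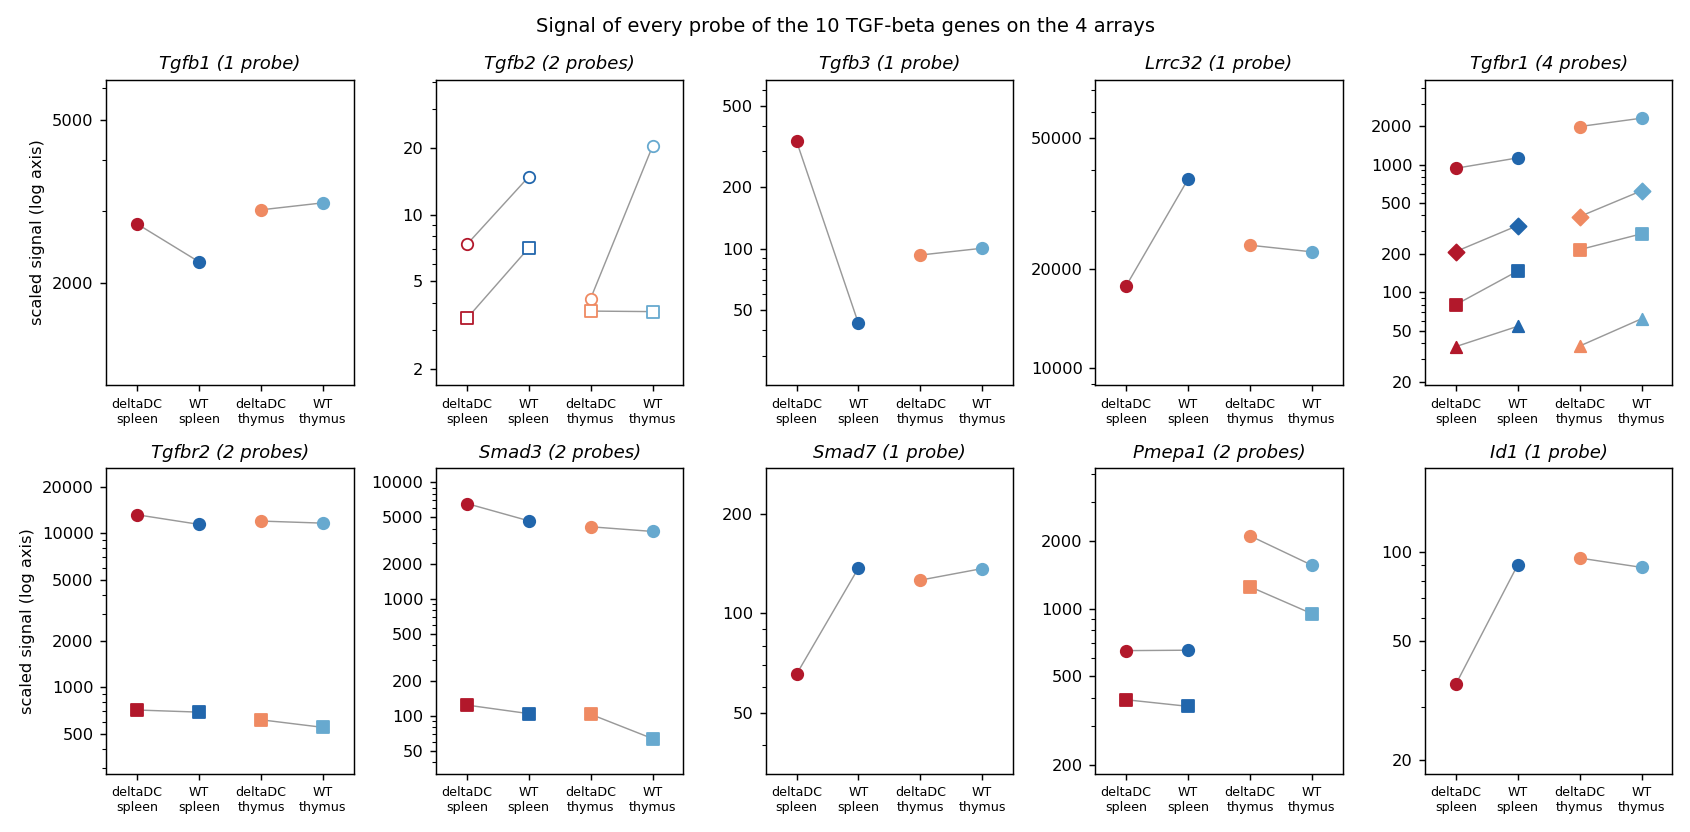
Scaled signal (log axis) of each of the 17 probes on the 4 arrays, with 1 panel per gene, 1 marker shape per probe, and open markers where a probe was not well above background. Tgfb3 was highest on the deltaDC spleen array (335), Lrrc32, Smad7 and Id1 were lowest there, and Pmepa1 and the Tgfbr1 probe that stands for the gene were higher on both thymic arrays than on both splenic ones.

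Among the ligands, Tgfb3 was the one that differed at least 2-fold between genotypes, and it did so in spleen. Tgfb1, the ligand that lymphocytes mainly make, had 2791 signal units in deltaDC spleen, 2255 in WT spleen, 3023 in deltaDC thymus and 3144 in WT thymus. The WT spleen array was the lowest, and the other arrays lay within 1.13-fold of one another. In spleen the difference between deltaDC and WT was 0.31 ± 0.03 log2 units (spot error), and in thymus it was -0.06 ± 0.04. The probe lay at chr7:26489877-26489936 (mm9, plus strand) and was printed 10 times per array. Its spots ran between 2534 and 2992 in deltaDC spleen and between 2133 and 2338 in WT spleen, so the spots of the splenic pair did not overlap. Those of the thymic pair did, with 2390 to 3220 in deltaDC thymus and 2970 to 3247 in WT thymus.

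Tgfb3, the isoform best known from epithelial and mesenchymal tissue and also described in helper T cells that make IL-17, had 335 signal units in deltaDC spleen, 43.2 in WT spleen, 93.2 in deltaDC thymus and 101 in WT thymus. The splenic deltaDC signal was 7.76-fold that of WT spleen, a difference of 2.96 ± 0.08 log2 units, which was the 72nd highest of 12529 genes measured on both splenic arrays. In thymus the 2 genotypes differed by -0.11 ± 0.05. The probe lay at chr12:87397804-87397863 (mm9, minus strand), and its repeated spots showed how firmly each array was measured. The 9 spots used in deltaDC spleen ran between 305 and 352, while the 10 in WT spleen ran between 32.4 and 50.6. In deltaDC thymus 9 spots ran between 86.1 and 102, and in WT thymus 9 ran between 88.5 and 112. The spots of deltaDC spleen overlapped with those of no other array, those of WT spleen lay below all others, and the thymic arrays overlapped. Macrophage and monocyte markers, 7 genes, summed to 2887 in deltaDC spleen, 1799 in WT spleen, 1760 in deltaDC thymus and 1414 in WT thymus, and the 7 stromal markers to 75.4 in deltaDC spleen, 78.9 in WT spleen, 540 in deltaDC thymus and 512 in WT thymus. The stromal markers Pdgfrb, Dcn, Pdgfra, Col3a1 and Lum were not well above background on either splenic array. Markers of innate lymphoid, gamma-delta T and natural killer T cells, 6 genes, summed to 4616 in deltaDC spleen and 329 in WT spleen. In thymus their sums were 1343 in deltaDC and 1609 in WT. The part of any of these cells in the Tgfb3 values was not tested.

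**Figure D2:**
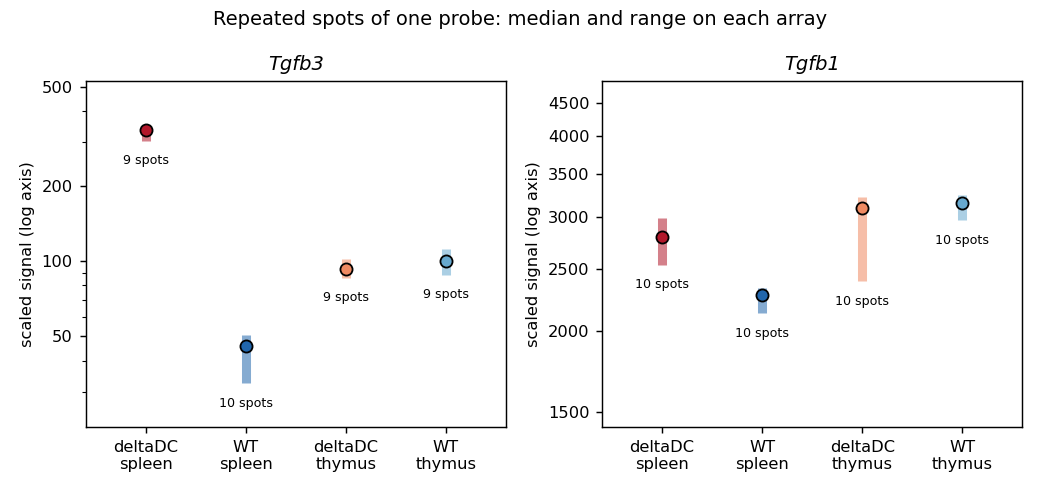
Median (point) and range (bar) of the repeated spots of the Tgfb3 and Tgfb1 probes on each array, as scaled signal on a log axis. The Tgfb3 spots of deltaDC spleen (305 to 352) and of WT spleen (32.4 to 50.6) lie on either side of the thymic arrays, while the Tgfb1 spots of all arrays lie between 2133 and 3247.

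Tgfb2, the third ligand, was not measured in these cells. Its probe in the coding sequence (chr1:188449333-188449392, mm9, minus strand) had 7.34 signal units in deltaDC spleen, 14.8 in WT spleen, 4.18 in deltaDC thymus and 20.4 in WT thymus, none well above background. The other probe (chr1:188447534-188447593) had 3.40 in deltaDC spleen, 7.08 in WT spleen, 3.67 in deltaDC thymus and 3.65 in WT thymus. Both are bounded by background alone, and no fold is given. The coding probes of Tgfb1 and Tgfb2 are shown, as the scanner files give them, because they cover the same C-terminal stretch of the mature ligand and show how far the probes differ between isoforms. Capitals mark bases that are identical when the 2 probes are laid side by side without gaps, 28 of the 41 that overlap.
Tgfb1 probe: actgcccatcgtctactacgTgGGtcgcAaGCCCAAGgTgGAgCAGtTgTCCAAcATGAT
Tgfb2 probe: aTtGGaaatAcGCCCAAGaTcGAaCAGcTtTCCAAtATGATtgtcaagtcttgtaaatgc
The share of identical bases was 68.3%. The Tgfb1 probe was bright on every array and the Tgfb2 probe stayed at background on the same arrays.

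Lrrc32, the anchor of latent TGF-beta on Tregs, was bright on every array and lowest on the splenic deltaDC one. Its probe (chr7:105650282-105650341, mm9, plus strand) had 17818 signal units in deltaDC spleen, 37495 in WT spleen, 23634 in deltaDC thymus and 22563 in WT thymus. WT spleen was the highest array, and the thymic pair lay between the splenic ones. The splenic genotype difference was -1.07 ± 0.07 log2 units, the 202nd lowest of 12529 genes, and the thymic one was 0.07 ± 0.07, as large as its spot error. Il2ra, which encodes the CD25 used in the sort, had 15485 signal units in deltaDC spleen and 28939 in WT spleen, a difference of -0.90. It had 25470 in deltaDC thymus and 28097 in WT thymus. The other Treg markers, Foxp3, Ctla4 and Ikzf2, differed by -0.10, -0.06 and -0.02 in spleen (deltaDC minus WT). Platelets and endothelium also make Lrrc32. The 7 platelet markers summed to 252 in deltaDC spleen, 185 in WT spleen, 107.1 in deltaDC thymus and 113 in WT thymus. The 7 endothelial markers summed to 1818 in deltaDC spleen, 2100.3 in WT spleen, 2044 in deltaDC thymus and 1841 in WT thymus. Pecam1 and Kdr were well above background on every array, Vwf was in deltaDC spleen, and Cdh5, Tek, Cldn5 and Emcn were on none. The part of platelets and endothelium in the Lrrc32 values was not tested.

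The type I receptor Tgfbr1 differed by organ in both genotypes. The probe that represents the gene (chr4:47427736-47427795, mm9, plus strand) had 935 signal units in deltaDC spleen, 1128 in WT spleen, 1985 in deltaDC thymus and 2306 in WT thymus. Both thymic arrays were above both splenic ones, and in each organ the deltaDC array was a little lower. The thymus-minus-spleen difference was 1.09 ± 0.10 log2 units in deltaDC mice and 1.03 ± 0.08 in WT mice, which is 2.12-fold and 2.04-fold. The genotype difference was -0.27 ± 0.10 in spleen and -0.22 ± 0.08 in thymus.

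Tgfbr1 had 3 further probes, and they gave other sizes for the genotype difference. One on the same transcript (chr4:47424946-47425005) had 209 signal units in deltaDC spleen, 333 in WT spleen, 392 in deltaDC thymus and 624 in WT thymus. A probe for another listed transcript (chr4:47395833-47395892) had 80.2 in deltaDC spleen, 147 in WT spleen, 216 in deltaDC thymus and 287 in WT thymus. The dimmest (chr4:47374114-47374173), also for another transcript, had 37.6 in deltaDC spleen, 54.2 in WT spleen, 38.0 in deltaDC thymus and 62.1 in WT thymus. The deltaDC array was lower than the WT array of its organ for all 4 probes, by -0.27 to -0.87 log2 units in spleen and by -0.22 to -0.71 in thymus. The organ difference of the dimmest probe was 0.01 ± 0.39 in deltaDC mice and 0.19 ± 0.18 in WT mice. For the other 3 probes it lay between 0.90 and 1.43.

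Because the probes fall on several Tgfbr1 transcripts, the sequences upstream of the 2 Tgfbr1 starts in the RefSeq promoter table (GRCm38.p6) are shown, 250 bases each on the plus strand. They are on another build than the probes and were not placed against them. The upstream start follows chr4:47352972-47353221 and the downstream start follows chr4:47385966-47386215. Capitals mark the only match in each to 2 motifs that Smad complexes are known to recognise, GGCGCC in the first and CAGACA in the second, searched on both strands.
Tgfbr1 upstream start: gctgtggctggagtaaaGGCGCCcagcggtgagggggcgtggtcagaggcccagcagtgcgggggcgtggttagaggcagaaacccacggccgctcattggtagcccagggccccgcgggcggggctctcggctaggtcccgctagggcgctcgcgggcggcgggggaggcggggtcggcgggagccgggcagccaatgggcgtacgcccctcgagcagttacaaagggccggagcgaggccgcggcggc
Tgfbr1 downstream start: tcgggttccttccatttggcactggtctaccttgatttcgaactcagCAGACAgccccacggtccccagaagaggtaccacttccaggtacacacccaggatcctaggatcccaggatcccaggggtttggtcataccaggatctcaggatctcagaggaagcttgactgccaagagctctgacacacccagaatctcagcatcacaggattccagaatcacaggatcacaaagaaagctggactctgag
The share of G and C was 74.8% in the first and 52.8% in the second. Of 32851 promoters of this length, 9.59% hold GGCGCC and 17.1% hold CAGACA, and a match is given as a description of the sequence. Entries of 5 of the 10 genes were used. The Tgfb2 promoter held 1 CAGACA, and those of Tgfb1, Smad3 and Tgfbr2 held neither motif.

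Tgfbr2, the ligand-binding receptor, was the steadiest of the measured genes. Its brighter probe (chr9:115997155-115997214, mm9, minus strand) had 13203 signal units in deltaDC spleen, 11438 in WT spleen, 12021 in deltaDC thymus and 11654 in WT thymus. All 4 arrays lay within 1.15-fold. The genotype difference was 0.21 ± 0.07 log2 units in spleen and 0.04 ± 0.07 in thymus. The second probe covers the 3′ end of the coding sequence (chr9:115999496-115999555), and had 713 in deltaDC spleen, 691 in WT spleen, 616 in deltaDC thymus and 550 in WT thymus. Its sequence, as the scanner files give it, is shown because it reads the protein-coding part of the receptor, and capitals mark the stop codon on which it ends.
Tgfbr2 probe: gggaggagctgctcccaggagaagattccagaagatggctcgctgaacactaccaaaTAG

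Smad3, the receptor-activated Smad most tied to TGF-beta responses in T cells, was highest on the splenic deltaDC array for both probes, within 2-fold in each comparison. The brighter probe (chr9:63494574-63494633, mm9, minus strand) had 6577 signal units in deltaDC spleen, 4676 in WT spleen, 4159 in deltaDC thymus and 3792 in WT thymus. The genotype difference was 0.49 ± 0.08 log2 units in spleen and 0.13 ± 0.08 in thymus. The dimmer probe (chr9:63497492-63497551) had 123 in deltaDC spleen, 104 in WT spleen, 103 in deltaDC thymus and 63.5 in WT thymus, with a genotype difference of 0.24 ± 0.18 in spleen and 0.69 ± 0.18 in thymus. The 2 probes gave the same sign and placed the larger difference in different organs.

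Smad7, the inhibitory Smad, was lowest on the splenic deltaDC array. Its probe (chr18:75555371-75555430, mm9, plus strand) had 65.6 signal units in deltaDC spleen, 137 in WT spleen, 126 in deltaDC thymus and 137 in WT thymus. The other arrays lay within 1.09-fold of one another. The genotype difference was -1.07 ± 0.18 log2 units in spleen, the 210th lowest of 12529 genes, and -0.12 ± 0.18 in thymus.

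Pmepa1, a membrane protein that TGF-beta induces and that holds back Smad signalling, was higher in thymus in both genotypes. Its brighter probe (chr2:173049966-173050025, mm9, minus strand) had 649 signal units in deltaDC spleen, 652 in WT spleen, 2114 in deltaDC thymus and 1562 in WT thymus. The second probe (chr2:173049970-173050029) had 392 in deltaDC spleen, 366 in WT spleen, 1252 in deltaDC thymus and 949 in WT thymus. The 2 probes share 56 bases, of which 55 are identical, so they are near-repeats and not independent. Both thymic arrays were above both splenic ones for each probe, by 3.26-fold in deltaDC mice and 2.40-fold in WT mice for the brighter probe. The genotype difference was -0.01 ± 0.11 log2 units in spleen and 0.44 ± 0.08 in thymus.

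Id1, an inhibitor of helix-loop-helix transcription factors that answers mainly to bone morphogenetic protein (BMP) signals and in some cells to TGF-beta, was lowest on the splenic deltaDC array. Its probe (chr2:152563083-152563142, mm9, plus strand) had 35.9 signal units in deltaDC spleen, 90.4 in WT spleen, 95.2 in deltaDC thymus and 88.6 in WT thymus. The other arrays lay within 1.07-fold of one another. The genotype difference was -1.33 ± 0.30 log2 units in spleen, the 95th lowest of 12529 genes, and 0.10 ± 0.18 in thymus. The splenic deltaDC signal lies in the range below 50, where the spot error is widest.

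**Figure D3:**
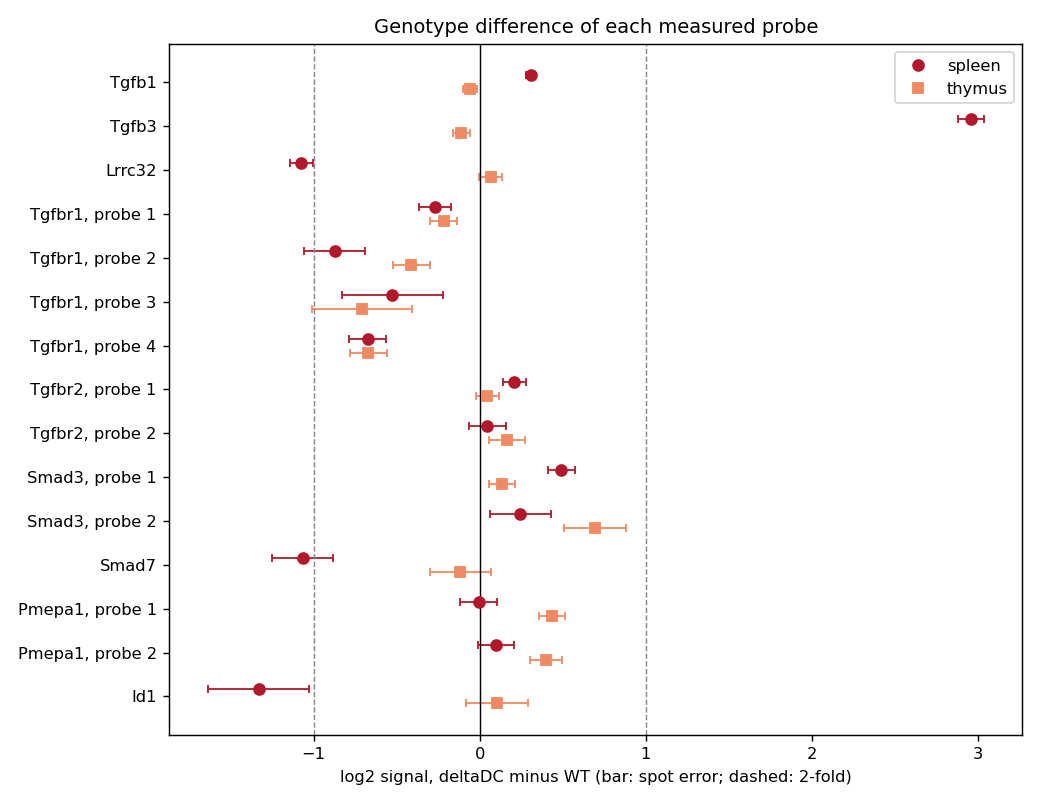
Genotype difference (log2 signal, deltaDC minus WT) of the 15 probes measured on all arrays, in spleen (circles) and thymus (squares), with the spot error as bars and dashed lines at 2-fold. Tgfb3 stands at 2.96 in spleen, Lrrc32, Smad7 and Id1 lie below -1 there, and no probe passes 2-fold in thymus.

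In spleen, 4 of the 9 measured genes differed at least 2-fold between deltaDC and WT. Tgfb3 was higher, 1 of 9, where 6.38% of the 12529 genes measured on both arrays were at least 2-fold higher. Lrrc32, Smad7 and Id1 were lower, 3 of 9, where 2.03% of all genes were at least 2-fold lower. The median of the 9 differences was -0.01 log2 units, as was that of all genes. With another background correction (normexp), Tgfb3 stood at 1.78, Smad7 at -0.72 and Id1 at -0.75, so Smad7 and Id1 were then within 2-fold. In thymus 0 of 9 differed at least 2-fold in either direction, where 0.928% of 13039 genes were higher and 0.667% were lower, so a count of 0 of 9 lies near those shares. The largest thymic difference of a representative probe was the 0.44 of Pmepa1. The 7 erythroid markers summed to 12380 in deltaDC thymus and 3060 in WT thymus, and their part in it was not tested.

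The genotype difference itself differed between spleen and thymus by 3.07 ± 0.09 log2 units for Tgfb3, -1.44 ± 0.36 for Id1, -1.14 ± 0.10 for Lrrc32 and -0.95 ± 0.26 for Smad7. Among 12286 genes measured on all 4 arrays, 6.57% had a genotype difference at least 2-fold higher in spleen and 2.34% one at least 2-fold lower in spleen. Tgfb3 was 1 of 9 in the first direction, and Lrrc32 and Id1 were 2 of 9 in the second. For the other 5 genes, Tgfb1, Tgfbr1, Tgfbr2, Smad3 and Pmepa1, the difference lay between -0.44 and 0.36. This difference between organs has no test here, since a fit of it would leave no degree of freedom. Under quantile normalization the value of Lrrc32 was -0.94 and under normexp that of Id1 was -0.82, both within 2-fold.

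Between organs, Tgfbr1, Pmepa1 and Id1 were at least 2-fold higher in deltaDC thymus than in deltaDC spleen, 3 of 9 genes, where 5.4% of 12803 genes were. Tgfb3 was at least 2-fold lower, 1 of 9, where 6.12% were. In WT mice Tgfb3, Tgfbr1 and Pmepa1 were at least 2-fold higher in thymus, 3 of 9, where 6.54% of 12482 genes were, and 0 of 9 were at least 2-fold lower, against 3.02% of all genes. The members' medians were 0.41 in deltaDC mice and 0.03 in WT mice, against -0.01 and -0.08 for all genes. Tgfb3 thus took opposite signs, with a thymus-minus-spleen difference of -1.85 ± 0.04 log2 units in deltaDC mice and 1.22 ± 0.08 in WT mice. Lrrc32 also did, at 0.41 ± 0.07 in deltaDC mice and -0.73 ± 0.07 in WT mice. Id1 had 1.41 ± 0.30 in deltaDC mice and -0.03 ± 0.18 in WT mice, and Smad7 had 0.94 ± 0.18 in deltaDC mice and -0.01 ± 0.18 in WT mice. Under normexp, the WT organ difference was 0.48 for Tgfb3 and 0.96 for Tgfbr1, and the deltaDC one was 0.72 for Id1, all within 2-fold. The genotype and organ comparisons share arrays, so these values are not independent of the splenic ones above.

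**Figure D4:**
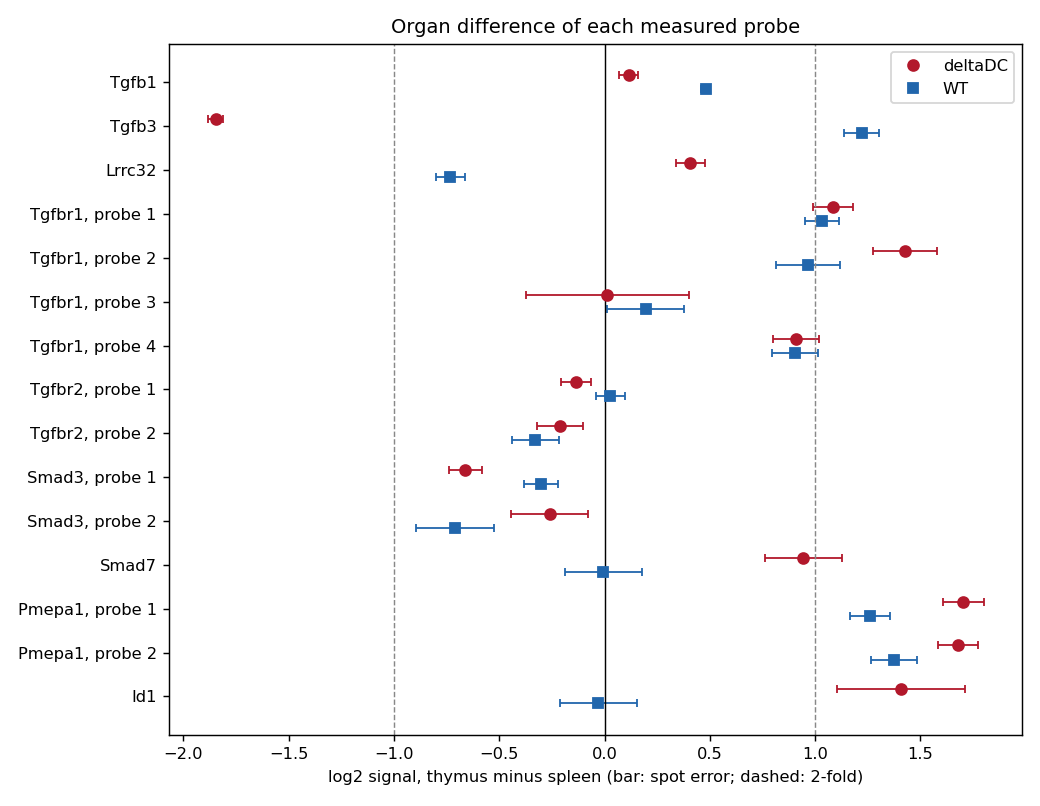
Organ difference (log2 signal, thymus minus spleen) of the 15 probes measured on all arrays, in deltaDC mice (circles) and WT mice (squares), with the spot error as bars and dashed lines at 2-fold. Both Pmepa1 probes lie above 1 in both genotypes, while Tgfb3 lies at -1.85 in deltaDC mice and at 1.22 in WT mice.

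Markers of other thymic cells moved with the organ. The 7 B cell markers summed to 5742 in deltaDC thymus and 1943 in deltaDC spleen, and to 3351 in WT thymus and 2026 in WT spleen. Of the 7 stromal markers, whose sums are given with Tgfb3, Pdgfra and Lum were not well above background on any array. The 7 thymic epithelial markers summed to 2086 in deltaDC thymus and 512 in deltaDC spleen, and to 1242 in WT thymus and 790 in WT spleen, with Foxn1 and Aire not well above background on any array. The part of these cells in the organ differences of Tgfbr1 and Pmepa1 was not tested.

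An additive fit of genotype and organ over the 4 arrays (limma, two-sided moderated test, Benjamini-Hochberg adjusted over 13491 genes, with 1 residual degree of freedom) was the one test open to this design. That degree of freedom is the difference of the genotype effect between organs, so a change in 1 organ only counts as error. The fit therefore cannot decide on differences found in spleen only. For Tgfb3 its genotype term was 1.42 ± 0.93 log2 units (standard error). Both arrays of a genotype come from the same mice, so genotype and those mice cannot be told apart. Splenic and thymic cells were enriched in different ways before the sort, so organ and enrichment cannot be told apart either. For the organ, Tgfbr1 was higher in thymus by 1.06 ± 0.14 log2 units (standard error; limma adjusted p = 0.127) and Pmepa1 by 1.48 ± 0.19 (limma adjusted p = 0.127), both in 2 of 2 genotypes. Their unadjusted limma p-values were 0.00552 and 0.00546, and none of the 9 genes passed the adjusted threshold. For the genotype, the 9 adjusted limma p-values lay between 0.807 and 0.859. Neither term called any gene on the whole array, 0.0% of 13491 for genotype and 0.0% for organ at a limma adjusted p under 0.05. At an unadjusted limma p under 0.05 the fit counted 578 genes for genotype and 2697 for organ. With the variance allowed to trend with signal (limma eBayes trend), the adjusted count was 0 genes for genotype and 126 for organ.

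Of 11 latency and activation genes, which carry or release TGF-beta, 7 were measured on both splenic arrays. Of these, 1 was at least 2-fold higher in deltaDC and 0 were lower, where 6.38% of all genes were higher and 2.03% lower, so these counts lie near the shares over all genes. The list median was 0.29 log2 units against -0.01 for all genes. The higher gene was Mmp14, a membrane protease that can free latent ligand, with 56.5 signal units in deltaDC spleen and 23.9 in WT spleen. Ltbp2, a latent TGF-beta binding protein of the matrix, was well above background in deltaDC spleen and not in WT spleen. It had 37.5 signal units in deltaDC spleen, which is at least 2.17-fold its bound in WT spleen. In thymus 0 of 8 measured genes differed 2-fold between genotypes, where 0.928% of all genes were higher and 0.667% lower. Nrros, which anchors latent TGF-beta on myeloid cells, had 11928 signal units in deltaDC spleen, 11853 in WT spleen, 13445 in deltaDC thymus and 11111 in WT thymus. Itgb8, part of the integrin that frees ligand from Lrrc32, had 105 in deltaDC spleen, 109 in WT spleen, 93.1 in deltaDC thymus and 138 in WT thymus. Between organs, Ltbp3, a binding protein that aids secretion of the latent complex, had 123 in WT thymus and 52.8 in WT spleen, a difference of 1.22. Ltbp1 was well above background in thymus only, and was at least 3.01-fold higher in deltaDC thymus than in deltaDC spleen and at least 2.05-fold higher in WT thymus than in WT spleen.

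Among receptors of the wider family, Acvr1 and Bmpr1a were higher in deltaDC spleen than in WT spleen, and Acvr2b was higher in thymus. In spleen 2 of 9 measured receptor and coreceptor genes were at least 2-fold higher in deltaDC and 0 lower, where 6.38% of all genes were higher and 2.03% lower. The list median was -0.42 against -0.01 for all genes. They were Acvr1, a type I receptor for BMP and activin, with 207 signal units in deltaDC spleen and 62.4 in WT spleen, and the BMP receptor Bmpr1a, with 90.2 in deltaDC spleen and 37.5 in WT spleen. In thymus 0 of 10 differed 2-fold between genotypes, near the shares of 0.928% higher and 0.667% lower over all genes. The activin receptor Acvr2b had 741 signal units in deltaDC thymus and 93.5 in deltaDC spleen, and 897 in WT thymus and 145 in WT spleen. Those are differences of 2.99 and 2.62 log2 units, and its limma adjusted p for organ was 0.0691. Eng (endoglin), a coreceptor known from endothelium, had 164 in deltaDC thymus and 47.8 in deltaDC spleen, and 132 in WT thymus. It was not well above background in WT spleen, which puts WT thymus at least 7.65-fold higher than WT spleen and deltaDC spleen at least 2.76-fold higher than WT spleen. Tgfbr3 (betaglycan), the coreceptor that presents ligand to Tgfbr2, had 921 in deltaDC thymus and 295 in deltaDC spleen, and 851 in WT thymus and 464 in WT spleen, a difference of 1.64 in deltaDC mice and 0.88 in WT mice. In deltaDC mice 4 of 10 were at least 2-fold higher in thymus and 1 lower, where 5.4% of all genes were higher and 6.12% lower. In WT mice 2 of 9 were higher and 0 lower, where 6.54% of all genes were higher and 3.02% lower. The 2 higher ones in WT mice were Acvr2b and Acvr1. Acvr1 had 274 in WT thymus and 62.4 in WT spleen, a difference of 2.13, and 232 in deltaDC thymus.

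Of 10 other Smads and their partners, 6 were measured on both splenic arrays and 7 on both thymic arrays. Between genotypes, 0 of 6 differed at least 2-fold in spleen, where 6.38% of all genes were higher and 2.03% lower, and 0 of 7 in thymus, where 0.928% were higher and 0.667% lower. Both counts lie near the shares over all genes. Smad2, the partner of Smad3, had 463 signal units in deltaDC spleen, 504 in WT spleen, 482 in deltaDC thymus and 460 in WT thymus. Smad4, the shared partner, had 4952 in deltaDC spleen, 5431 in WT spleen, 4710 in deltaDC thymus and 3780 in WT thymus. Smad6, the inhibitor of BMP signals, and Smad9 were not well above background on any array. Foxh1, a DNA-binding partner of Smads, was well above background in thymus only, and was at least 2.43-fold higher in deltaDC thymus than in deltaDC spleen.

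Of the inhibitors of the pathway, 0 of 11 measured genes differed at least 2-fold between genotypes in spleen and 0 of 11 in thymus. Over all genes 6.38% were higher and 2.03% lower in spleen, and 0.928% were higher and 0.667% lower in thymus, so counts of 0 lie near those shares. Their medians were -0.14 in spleen and 0.13 in thymus, against -0.01 and 0.05 for all genes. In deltaDC mice 2 of 11 were at least 2-fold higher in thymus than in spleen, where 5.4% of all genes were. Ldlrad4, a relative of Pmepa1 that also binds receptor-regulated Smads, had 354 signal units in deltaDC thymus and 106.6 in deltaDC spleen, and 487 in WT thymus and 188 in WT spleen. Skil (SnoN), a nuclear repressor of Smads, had 3381 in deltaDC thymus and 1384 in deltaDC spleen, and 3298 in WT thymus and 2213 in WT spleen. The limma adjusted p for organ was 0.116 for Ldlrad4 and 0.229 for Skil. Ldlrad4, like Pmepa1 and Tgfbr1, was thus above its splenic arrays on both thymic arrays without passing the test.

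**Figure D5:**
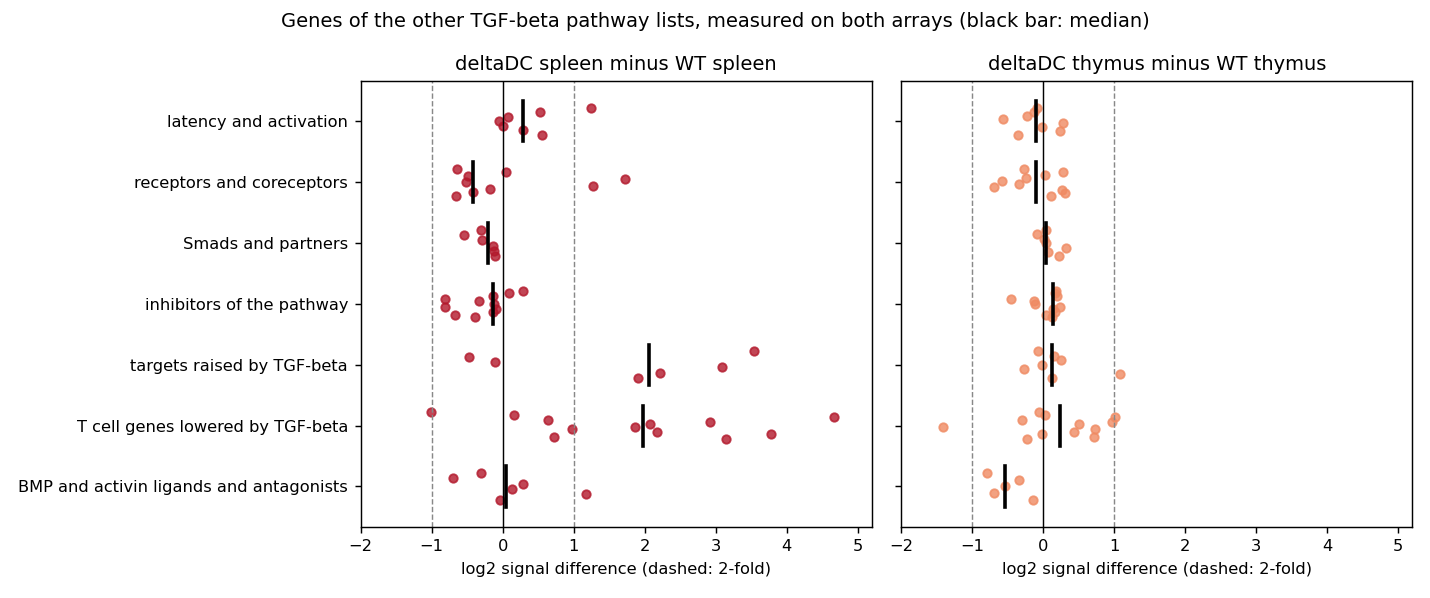
Genotype difference (log2 signal) of each gene of 7 further pathway lists measured on both arrays of an organ, spleen at left and thymus at right, with the list median as a black bar and dashed lines at 2-fold. The lists of targets raised and of T cell genes lowered by TGF-beta have medians of 2.06 and 1.97 in spleen, and 0.13 and 0.23 in thymus.

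Most measured genes of the list of targets raised by TGF-beta were higher on the splenic deltaDC array. So were most of the list of T cell genes that it lowers. Smad7, Pmepa1 and Id1, which can also respond to TGF-beta, are counted with the members and not in these lists. Their splenic genotype differences were -1.07, -0.01 and -1.33 log2 units, so the reading depends on how the lists were drawn. Of 11 genes listed as raised by TGF-beta, 6 were measured on both splenic arrays. Of these, 4 were higher by at least 2-fold and 0 were lower, where 6.38% of all genes were higher and 2.03% lower. The list median was 2.06 log2 units against -0.01 for all genes. Id2, an inhibitor of helix-loop-helix factors that is also a hallmark of innate lymphoid and effector cells, had 15197 signal units in deltaDC spleen and 1302 in WT spleen, a difference of 3.54. Cdkn1a (p21), a cell cycle inhibitor, had 201 in deltaDC spleen and 23.5 in WT spleen, and the matrix protein gene Tgfbi had 346 in deltaDC spleen and 74.5 in WT spleen. The fourth was Itgae (CD103), an integrin chain for homing to epithelium, with 2064 in deltaDC spleen and 552 in WT spleen. Cdkn2b was well above background in deltaDC spleen and not in WT spleen, and was at least 6.83-fold higher. Ccn2, a matricellular growth factor gene, had 8.29 in deltaDC spleen, not well above background, and 60.2 in WT spleen, and was at least 6.51-fold lower. In thymus 1 of 7 measured genes was at least 2-fold higher in deltaDC, where 0.928% of all genes were. It was Tgfbi, with 302 signal units in deltaDC thymus and 142 in WT thymus. Col1a1, also in the stromal marker list, was well above background in deltaDC thymus and not in WT thymus, and was at least 2.11-fold higher.

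Of 12 T cell genes lowered by TGF-beta, all were measured in spleen, of which 7 were higher in deltaDC by at least 2-fold and 1 was lower, where 6.38% of all genes were higher and 2.03% lower. The list median was 1.97 log2 units. The cytokine gene Il4 had 1685 signal units in deltaDC spleen and 66.1 in WT spleen, a difference of 4.67, and the cytotoxic protease gene Gzmb had 3203 in deltaDC spleen and 233 in WT spleen. Tbx21, the master regulator of type 1 responses, had 6402 in deltaDC spleen and 723 in WT spleen, and the effector marker Klrg1 had 11781 in deltaDC spleen and 1550 in WT spleen. The gene that was lower was Myc, the growth regulator, with 1287 in deltaDC spleen and 2587 in WT spleen. In thymus Il4 was 1.02 log2 units higher in deltaDC, with 47.3 signal units in deltaDC thymus and 23.4 in WT thymus, and Ifng was lower, with 162 in deltaDC thymus and 433 in WT thymus. They were 1 of 12 higher and 1 of 12 lower, where 0.928% of all genes were higher and 0.667% lower. Tbx21, Gzmb, Klrg1 and Ifng are also known from NK cells. The 7 NK cell markers summed to 28995 in deltaDC spleen and 2795 in WT spleen, most of it Nkg7. The part of those cells in these values was not tested.

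Between organs, both lists were mostly lower in deltaDC thymus where they differed, and the comparisons share the splenic deltaDC array with those above. Of the genes listed as raised by TGF-beta, 0 of 8 measured were at least 2-fold higher in deltaDC thymus than in deltaDC spleen and 2 were lower. Over all genes 5.4% were higher and 6.12% lower. In WT mice 2 of 6 were higher and 0 lower, where 6.54% of all genes were higher and 3.02% lower. The 2 lower ones were Id2, with 1799 signal units in deltaDC thymus and 15197 in deltaDC spleen, and Cdkn2b, with 22.6 in deltaDC thymus and 118 in deltaDC spleen. The 2 higher ones in WT mice were Cdkn1a, with 287 in WT thymus and 23.5 in WT spleen, and Itgae, with 1715 in WT thymus and 552 in WT spleen. Of the 12 T cell genes lowered by TGF-beta, 2 were higher and 7 lower in deltaDC thymus, with a median of -2.02 log2 units against -0.01 for all genes. In WT mice 1 was higher and 4 lower, with a median of -0.67 against -0.08. The shares of all genes are those just given for each genotype. Gzma, a granzyme gene, was higher in thymus in both genotypes, with 7361 signal units in deltaDC thymus and 1744 in deltaDC spleen, and 5442 in WT thymus and 385 in WT spleen. Il4 had a thymus-minus-spleen difference of -5.15 in deltaDC mice, the lowest of the 12, and of -1.50 in WT mice. Fasl, the death ligand gene and the lowest of the 12 in WT mice, had 231 in deltaDC thymus and 2060 in deltaDC spleen, and 164 in WT thymus and 486 in WT spleen. Prf1 (perforin) had 289 in deltaDC thymus and 770 in deltaDC spleen, and 175 in WT thymus and 391 in WT spleen.

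Of 13 BMP and activin genes, 3 (Bmp4, Bmp6 and Fst) were not well above background on any array, and 5 (Bmp1, Bmp7, Gdf11, Nog and Chrd) were well above it on every array. In spleen 1 of the 6 measured on both arrays was at least 2-fold higher in deltaDC, where 6.38% of all genes were, and 0 were lower, against 2.03% of all genes. That was Bmp2, with 154 signal units in deltaDC spleen and 68.2 in WT spleen. Bmp2 also had 22.2 in deltaDC thymus, a thymus-minus-spleen difference of -2.79 in deltaDC mice, and it was not well above background in WT thymus. Bmp7 had 4204 in deltaDC spleen, 3824 in WT spleen, 1241 in deltaDC thymus and 2016 in WT thymus. Grem1, a BMP antagonist, was well above background in WT spleen only, at 24.6 signal units, and was at least 2.66-fold lower in deltaDC spleen. Inhba, an activin subunit gene, was well above background in WT thymus only, at 47.3, and was at least 2.99-fold lower in deltaDC thymus. Inhbb, the gene of the other subunit, was well above background in deltaDC thymus only, at 29.2, which is at least 3.16-fold its bound in deltaDC spleen. None of the 64 fitted entries of the 7 further lists passed the adjusted limma threshold, with a lowest adjusted p of 0.807 for genotype and 0.0617 for organ.

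For the 6 measured genes that spanned at least 1 log2 unit over the arrays, the genes with the nearest centred profile over the 4 arrays were listed among 12286 genes. Tgfb3 lay nearest to Plcd1, Rbpms2 and Tmem176b, with root mean square differences of 0.12, 0.13 and 0.15 log2 units. Plcd1, for example, had 1101 signal units in deltaDC spleen, 140.2 in WT spleen, 261 in deltaDC thymus and 275 in WT thymus. Lrrc32 lay nearest to Sez6l2, Cyth3 and Plekhn1, Tgfbr1 to Tfrc, Six5 and Nup210l, and Smad7 to Pgpep1l, Slc3a1 and Zfp609. Pmepa1 lay nearest to Homer3, Kctd1 and Kcnmb4, and Id1 to Atg4c, Treml2 and St8sia1. The likeness rests on 4 arrays and describes these arrays only.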

How the data were processed

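RNA of sorted Tregs was amplified from 10 ng, labelled with Cy3 and hybridised to 1 array per group, per the labels' protocols, with RNA integrity values between 8.4 and 9.9. The deposited scanner output gives each spot's fluorescence intensity, background-subtracted by Agilent Feature Extraction 10.7.3.1 per the file headers, with flags as other columns. The authors also deposited a matrix of log2 values, whose header states background subtraction and quantile normalization. Its columns had medians of 4.10 to 4.15, and no column was centred on 0. Across genes they correlated with the array of the same label at 0.996 to 0.997. The highest correlation of a column with an array of another label was 0.980 to 0.989, so each column was nearest to its own array. All reported values come from the scanner intensity, and the matrix served as an alternative.

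The 4 arrays lay on 1 slide with 1 scan time. Of 59305 non-control spots, 110 to 168 per array were flagged as outliers and left out, none was saturated, and 48.7 to 50.7% were well above background. Each array was scaled to a common 75th percentile, log2 was taken, and spots of one probe were averaged. A gene was represented by its brightest probe. A difference counted at 2-fold where both arrays were well above background. Where 1 array was well above background, a bound was set by dividing its signal by the dim array's lowest signal that was well above background, or by the gene's own dim signal if that was higher. Repeated spots (399 probes printed 10 times) gave the spot error, by brightness for probes with 1 spot. The additive fit used limma 3.58.1 in R 4.3.3. It was also run on simulated data with additive effects and noise from the spot error alone. Those data held no variation between mice, sorts or labellings, so they cannot show how the fit performs here. The number of arrays limits the precision.

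Probe names were updated through a RefSeq table of GRCm38, used for names, while probe coordinates are on mm9. Exon and UTR annotation on mm9 was not used here. The named genes were the 10 members with every probe, genes of the further lists, and the 3 nearest profiles. From each further list and comparison, up to 4 genes at least 2-fold different were named, and then some with such a bound. These were not always the genes with the largest differences. A few genes within 2-fold were added for their role. The members, gene lists and tests were chosen with earlier results of these data known. One gene of the lists is not reported here and was left out of their counts, medians and sums.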

Additional observations from a re-analysis of the deposited data

Results flagged for a closer look

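The genotype difference of Tgfb3 took opposite signs in the 2 organs, at 2.96 log2 units in spleen and -0.11 in thymus (deltaDC minus WT), each more than 2 spot errors from 0, and the 2 differ by 3.07 log2 units. The thymic value is small, since the spots of the thymic arrays overlapped and 23.6% of 13039 genes were lower still. The spot error holds no variation between mice, sorts or labellings, so it cannot establish a reversal. Seen by organ, thymus minus spleen was -1.85 in deltaDC mice and 1.22 in WT mice, which differ by -3.07. For Lrrc32, thymus minus spleen was 0.41 in deltaDC mice and -0.73 in WT mice, which differ by 1.14. These differences were not tested, because each group has 1 array, and the Tgfb3 values are one pattern read in both directions.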

How the results depend on the processing

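Both organs of a genotype come from the same mice, and the genotype term of the additive fit is also the block for those mice. No other paired analysis was possible because each group has 1 array and the replicate numbers only name it. A slide block was not run because all arrays share 1 slide and 1 scan. Over 8 alternatives per pair of arrays and 9 per fit, 9 of 522 values of single members fell inside the threshold, 2 passed it (Smad7 in the authors' matrix) and the others kept their side of it. Of the 522, 15 took the opposite sign, 0 of them past a threshold under either setting. These were thymic genotype differences of Lrrc32 (0.07, to -0.09) and Tgfbr2 (0.04, to -0.09), the splenic one of Pmepa1 (-0.01, to 0.05), WT organ differences of Tgfbr2, Smad7 and Id1 (sizes up to 0.15), and the spleen-minus-thymus genotype difference of Smad3, which was 0.36 and stood at -0.05 with the median over probes. In the organ fit, Lrrc32 (-0.16) stood at 0.0215 under quantile normalization, and Tgfbr2 (-0.05) at 0.0507 under it and 0.0146 in the authors' matrix. With normexp, the genes at least 2-fold different numbered 568 instead of 1053 for genotype in spleen, 58 instead of 208 for genotype in thymus, 950 instead of 1474 for organ in deltaDC mice and 704 instead of 1193 for organ in WT mice. The members at least 2-fold lower in deltaDC spleen then numbered 1, and those at least 2-fold higher in WT thymus 1. Without a filter on dim genes these counts were 3095, 1655, 3560 and 3308, with 1 member lower in deltaDC thymus (Tgfb2, at background). With genes well above background on all 4 arrays, the thymic genotype count was 136. The organ fit, which called 0 genes, called 279 with normexp, 55 with the median over probes, 24 with outlier spots kept and 126 with eBayes trend, and no member was among them. The cause of these shifts was not tested. Signal near background limits Id1, Smad7 and the WT spleen value of Tgfb3, and both Tgfb2 probes have only a bound.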
